A study of Mus musculus with 2 samples.

Results

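The genes described here are 38 chemokine and chemokine receptor genes of the mouse, 26 ligands and 12 receptors, chosen by symbol from the 34184 genes that both feature lists hold. Cxcl12 and its receptors were left aside. Each of the 38 symbols occurred exactly once. The description asks which cell class held the transcript of each ligand and of each receptor in femur marrow and in ectopic bone.

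A pair of tissues was compared, each in 1 single-cell RNA library. The femur library came from femur bone marrow. The ectopic library came from marrow of bone that formed under the skin, taken 4 weeks after implanting 8 µg of bone morphogenetic protein 2 (BMP-2) with 40 mg of β-tricalcium phosphate (β-TCP). In both, hematopoietic cells were from wild-type C57BL6J mice and CXCL12-abundant reticular (CAR) cells were from Cxcl12-GFP mice, which carry a fluorescent reporter of Cxcl12. Hematopoietic and endothelial cells were depleted from the CAR fraction before the fractions were joined, so the share of CAR cells in a library is set by the mixing. Mouse age, sex and number were not given in the sources used here. With 1 library per group no difference could be tested, and every interval below is an exact 95% interval that covers counting error only.

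Chemokines are small secreted proteins that guide leukocytes along concentration gradients, and their receptors are G protein-coupled receptors on the leukocyte surface. A receptor often binds several chemokines. CXCR2 and its ligands CXCL1, CXCL2, CXCL3 and CXCL5 steer neutrophils out of marrow and into tissue, CCR2 with CCL2 and CCL7 does so for monocytes, and CXCR3 with CXCL9 and CXCL10 for effector T and NK cells. In marrow, reticular stromal cells are a known source of chemokines.

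The femur matrix held 123009924 unique molecular identifiers (UMIs, each standing for 1 captured RNA molecule) in 11148 barcodes and the ectopic matrix 86018367 in 7214, with 26 barcode sequences occurring in both. After filters, 9755 femur and 6425 ectopic cells were kept. They were clustered without any chemokine family gene, so that the classes do not rest on the genes described, and named from marker genes with the word "like". CAR-like cells numbered 198 and 160 and held Cxcl12 at 8993 and 10526 CPM, EGFP at 664 and 993 and Lepr at 3269.7 and 1559.9. Pairs of values are given with the femur first. Levels are CPM, the UMIs of a gene summed over the cells of a class, per 1000000 UMIs of that sum. A gene counted as measured in a class if the libraries together held at least 50 UMIs of it there. It is called higher or lower where the ratio of ectopic to femur CPM passed 1.5-fold, which is a threshold on size with no test behind it. The borders between macrophage-like, monocyte-like and conventional dendritic cell-like cells moved with the clustering settings. Classes were rebuilt here, with no annotation by the authors used.

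Of the 38 genes, 32 were measured in at least 1 class and 6 were not (Ccl8, Ccl11, Ccl17, Ccl22, Cxcl13 and Ppbp). The class of highest level was the same in both libraries for 26. For 8 of the other 12 at least 1 library had no class with 10 UMIs of the gene. The remaining 4 were Ccl2, Pf4, Ccr3 and Cxcr3, each highest in different classes of the 2 libraries, an order that moved with the settings. The femur level of Ccl2 in macrophage-like over CAR-like cells was 1.10 (0.851 to 1.42), and in 9 of 12 processing settings CAR-like cells led in the femur as in ectopic bone. For Ccr3 the macrophage-like over the basophil or mast cell-like level was 1.01 (0.537 to 2.001) in the femur, and the leading femur class changed in 6 of 12 settings. The leading class also moved for some of the 26 genes. Cxcl10 kept it in 5 of 12 settings in each library, and Ccr2 and Xcr1 in 5 femur and 6 ectopic settings. Over all classes, 157 gene and class combinations were measured. The ectopic library was at least 1.5-fold higher in 33 and lower in 29, and 95 lay within that fold. Among all genes and classes measured the same way, 3.85% were higher and 4.88% lower. Of the 62 combinations past the fold, 18 stayed past it in the same direction under every processing alternative that gave a value. They were Ccl2, Ccl7 and Cxcl5 in CAR-like cells, Ccl4 in NK-like cells, Ccl4, Cxcl10, Cxcr5, Ccr6 and Ccr9 in T-like cells and Ccl3, Ccl4 and Cxcl2 in conventional dendritic cell-like cells. The others were Ccl5 and Cxcl2 in mature neutrophil-like, Ccr7 and Cxcl16 in macrophage-like, Ccr2 in plasmacytoid dendritic cell-like and Cxcl2 in B cell-like cells. In conventional dendritic cell-like cells only 9 of the 14 alternatives gave a value. Of the alternatives that redrew the classes, only no doublet removal and at least 1500 UMIs were among these 9. Leaving out a low-UMI CAR-like cluster, also among the 14, could not change any other class.

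**Figure D1:**
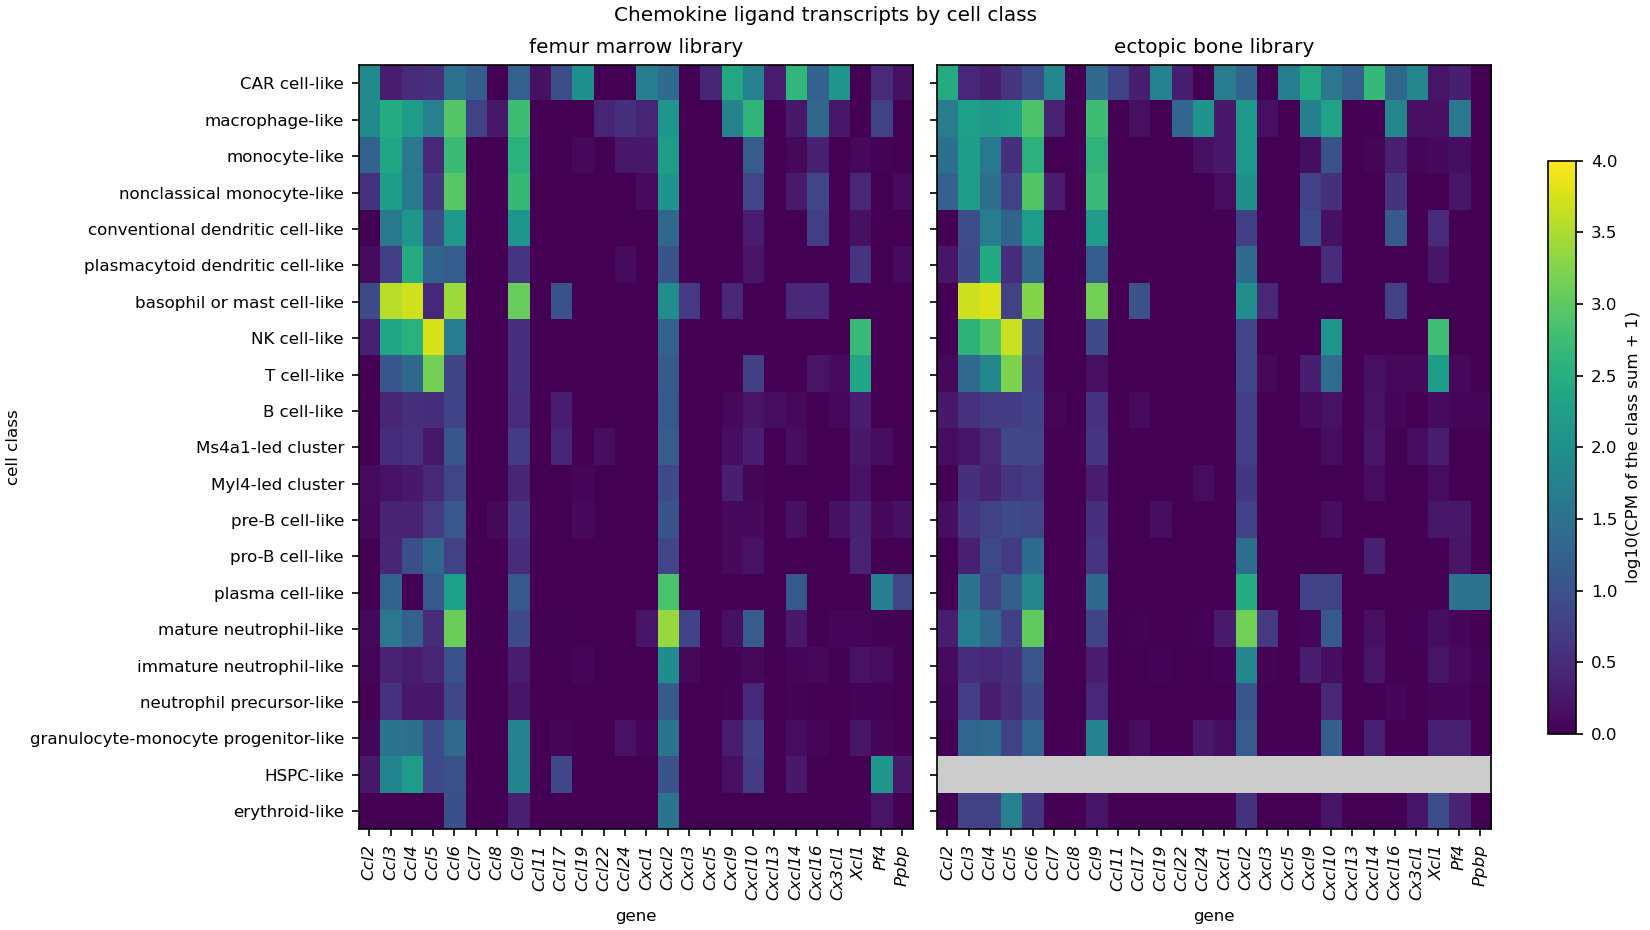
Levels of the 26 ligand genes (columns) in 21 cell classes (rows) of the femur library (left) and the ectopic library (right), as log10 of CPM plus 1; grey marks a class with fewer than 20 cells in that library. Ccl5 and Xcl1 stand out in NK and T cell-like rows, Ccl3 and Ccl4 in the basophil or mast cell-like row, Cxcl2 in mature neutrophil-like cells, and Cxcl14, Ccl19, Cx3cl1 and Cxcl9 in the CAR cell-like row of both libraries.

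CAR-like cells held the highest level of Cxcl14, Ccl19, Cx3cl1, Cxcl1, Cxcl9 and Ccl7 in both libraries. Cxcl5 and Cxcl13 were highest there in the ectopic library and had 3 and 5 UMIs in all kept femur cells. Ccl2 was highest there in the ectopic library, in all 12 settings. For Cxcl9 the ectopic lead passed to macrophage-like cells with at least 1500 UMIs per cell and when the low-UMI CAR-like cluster was left out. With no doublet removal an osteoblast-like class led in the femur for Cxcl14, Cxcl1 and Cxcl9. Of 14 members measured in CAR-like cells, 3 were higher in ectopic bone (Ccl2, Ccl7 and Cxcl5), 3 were lower (Ccl6, Ccl19 and Cx3cl1) and 8 were within 1.5-fold, against 10.6% of all measured genes higher and 9.88% lower. The median log2 ratio of the 14 was 0.01, and that of all measured genes was 0.04. Ectopic and femur CAR-like cells fell mostly into different clusters. Femur cells lay in clusters led by Igfbp5 (92 cells), Ibsp (61) and Limch1 (12), ectopic cells in 1 led by Ghr (109), and a cluster of low UMI counts held 33 femur and 50 ectopic cells. All CAR-like values below therefore compare different clusters of one class.

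Cxcl14, a chemokine made by many epithelial and stromal cells, had UMIs in 153 of the 198 CAR-like cells of the femur and 118 of the 160 from ectopic bone. Its level was 452 and 472 CPM, a ratio of 1.04 (0.947 to 1.15). CAR-like cells held 95.8% of the Cxcl14 UMIs in kept femur cells and 96.4% of those in kept ectopic cells. Barcodes that were not kept held 27.4% and 18.5% of all Cxcl14 UMIs of the 2 libraries. Of the 169 femur and 128 ectopic CAR-like cells with at least 2000 UMIs, thinned to that number, 46.7% and 46.1% kept a UMI (unthinned, 77.3% and 73.8% of all CAR-like cells), against 1 femur and 0 ectopic B cell-like cells, which should lack it. The counting interval of the Cxcl14 ratio held 1.

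Ccl19, the ligand of CCR7 that draws naive T cells and dendritic cells, was at 101 and 57.9 CPM. Its ratio was 0.574 (0.445 to 0.736), and 88 femur and 51 ectopic cells held it. The gene has near-identical copies in the mouse genome, so its count may be split among them. Cx3cl1, the membrane-tethered chemokine fractalkine, was at 119.6 and 67.6 CPM (ratio 0.565, interval 0.447 to 0.711) in 100 and 69 cells. The 5 cells with the most held 18.5% of the femur and 33.3% of the ectopic Ccl19 UMIs, and 15.2% and 23.2% of those of Cx3cl1. Thinned to 2000 UMIs per cell, the log2 ratio of Ccl19 was -0.16 in place of -0.80, and with the mean of per-cell CPM it was -0.32, neither past 1.5-fold. That of Cx3cl1 ranged from -1.03 to -0.41 over all alternatives, and it too was within the fold with the mean of per-cell CPM.

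Ccl2, which recruits CCR2-bearing monocytes, was higher in ectopic CAR-like cells. Femur cells held 153 UMIs in 40 cells, 79.2 CPM (67.2 to 92.8). Ectopic cells held 469 in 49 cells, 283 CPM (258 to 309.7), which gives a ratio of 3.57 (2.97 to 4.32). The share of those thinned cells with a Ccl2 UMI was 8.88% and 20.3% (unthinned, 20.2% and 30.6% of all), and B cell-like cells, which should lack it, held 0 and 6 UMIs in all. A few cells carried much of the signal, since 48.4% of the femur and 65.0% of the ectopic UMIs lay in 5 cells. Without these 5 cells of each library the log2 ratio was 1.30, against 1.84 with them. In the ectopic library Ccl2 was 279 CPM in the Ghr-led cluster and 411 in the low-UMI cluster, both above the 79.3 and 102 CPM of the Igfbp5-led and Ibsp-led femur clusters.

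Ccl7, another CCR2 ligand, was higher too. Its level was 14.5 and 70.6 CPM, a ratio of 4.87 (3.20 to 7.64), from 24 femur and 31 ectopic cells. CAR-like cells held 80.0% of the Ccl7 UMIs in kept femur cells and 94.4% of those in kept ectopic cells. Barcodes that were not kept held 8 of the 43 femur and 96 of the 220 ectopic Ccl7 UMIs. In single ectopic CAR-like cells, 22 of the 31 with Ccl7 also held Ccl2, and those 22 carried 83.8% of the Ccl7 UMIs. In the femur it was 13 of 24. Ccl2, Ccl7, Ccl11 and Ccl8 follow each other in that order among the members on chromosome 11. Ccl11 (eotaxin) had 1 femur and 9 ectopic UMIs in CAR-like cells, and Ccl8 had 2 femur and 0 ectopic UMIs in all kept cells.

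Cxcl5, a CXCR2 ligand that attracts neutrophils, had the largest ratio of the 14. Femur CAR-like cells held 3 UMIs in 3 cells and ectopic ones 84 UMIs in 35 cells, 1.55 and 50.7 CPM. The ratio was 32.6 (10.8 to 161), and its width follows from the 3 femur UMIs. No other class of either library held a Cxcl5 UMI. All 35 ectopic cells also held Cxcl12, a naming marker found in 159 of the 160 cells of the class. Of the 35, 15 held Ccl2 and 12 held Ccl7, where 49 and 31 of all 160 did. The ratios of Ccl2, Ccl7 and Cxcl5 stayed above 1.5 in all 14 alternatives. Cxcl13, the B cell attractant that binds CXCR5, had lower counts, 2 femur and 26 ectopic UMIs in 2 and 14 cells, below the 50 UMIs asked for.

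**Figure D2:**
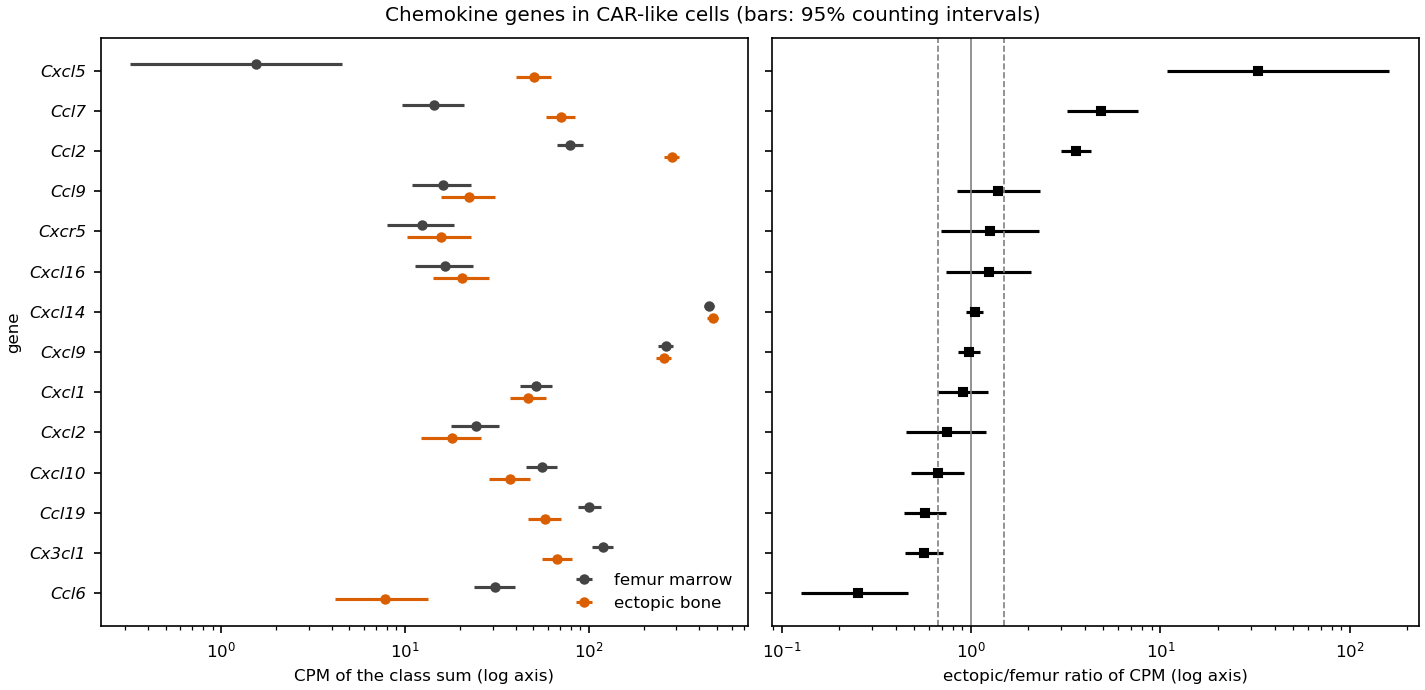
The 14 members measured in CAR-like cells, with the level in each library (left, CPM of the class sum on a log axis, points with exact Poisson 95% bars) and the ectopic/femur ratio (right, log axis, bars are exact 95% intervals; solid line 1, dashed lines 1.5-fold). Cxcl5, Ccl7 and Ccl2 lie above the upper dashed line with their whole bars, and the points of Ccl6, Cx3cl1 and Ccl19 lie below the lower one.

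Cxcl9 and Cxcl10, the interferon-induced ligands of CXCR3, were unevenly spread. Cxcl9 was at 262 and 256 CPM (ratio 0.976, interval 0.856 to 1.11), but 45 femur cells held it and 15 ectopic cells. In the ectopic library 49.3% of the UMIs lay in 1 cell and 91.7% in 5, and the low-UMI cluster stood at 3733 CPM against 51.3 in the Ghr-led cluster. For Cxcl10, 1 cell held 79.6% of the femur and 74.2% of the ectopic UMIs, at 55.9 and 37.4 CPM. Cxcl1, a CXCR2 ligand, was similar at 51.8 and 47.1 CPM from 14 and 12 cells. The ectopic Cxcl9 level and the Cxcl10 and Cxcl1 levels thus describe a few cells. Cxcl16, the ligand of CXCR6, was at 16.6 and 20.5 CPM, from 24 and 25 cells.

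**Figure D3:**
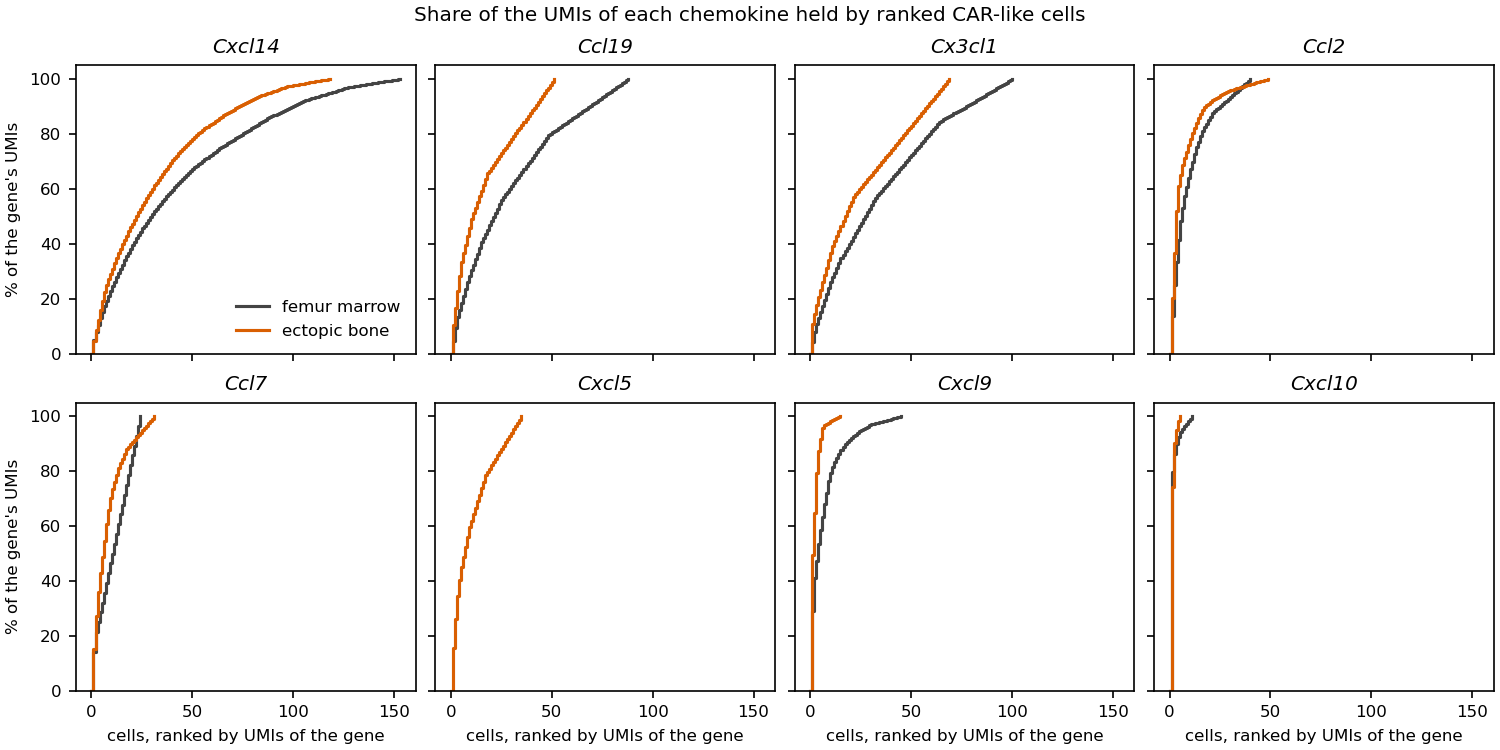
For 8 ligands, the cumulative percent of the UMIs in CAR-like cells (vertical axis) held by the cells ranked by their UMIs of that gene (horizontal axis), in the femur (dark grey) and the ectopic library (orange). Cxcl14, Ccl19 and Cx3cl1 climb slowly over more than 50 cells, whereas Cxcl9 and Cxcl10 reach most of their UMIs within 5 cells; Cxcl5 has no femur line because it had 3 UMIs there.

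Other gene groups were read in the same CAR-like cells. Of 19 dissociation and immediate early genes, which rise when tissue is digested, 9 were higher and 1 lower in ectopic CAR-like cells, with a median log2 ratio of 0.46. Their summed level was 10088 and 14012 CPM, and the highest ratios were those of the heat shock genes Hspa1a (ratio 5.10, interval 3.55 to 7.50) and Hspa1b (ratio 4.19, interval 3.10 to 5.76). NF-kB response genes had 2 of 12 measured higher, Tnfaip3 (ratio 1.83, interval 1.32 to 2.57) and Sod2 (ratio 1.58, interval 1.30 to 1.92), and 0 lower. The part of these gene groups in the Ccl2, Ccl7 and Cxcl5 values was not tested. Ccl6, a macrophage and neutrophil chemokine, was at 31.1 and 7.84 CPM, but 1 cell held 68.3% and 69.2% of its UMIs. Thinned to 2000 UMIs per cell, its log2 ratio turned to 0.99. The 10 neutrophil marker genes summed to 2241 and 1468 CPM in CAR-like cells, none at 0. Of 10 macrophage marker genes, 4 were at 0 in femur and 5 in ectopic CAR-like cells, and the sum was 202 and 116 CPM.

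Mature neutrophil-like cells held most Cxcl2, at a lower level in ectopic bone. Cxcl2, an acute CXCR2 ligand that neutrophils release to draw in more neutrophils, made up 50601 UMIs in 3022 femur and 18189 in 1551 ectopic mature neutrophil-like cells. The levels were 2379.7 and 1405 CPM, a ratio of 0.590 (0.581 to 0.601). The class held 92.4% of the Cxcl2 UMIs in kept femur cells and 86.5% of those in kept ectopic cells. The transcript was spread over 2560 femur and 1211 ectopic cells, of which the 5 with the most carried 0.996% and 2.28%.

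Inside the class, Cxcl2 was lower in the ectopic library in all 5 clusters, with every counting interval below 1. The Il1b-led cluster had 3629 and 1770.1 CPM (ratio 0.488), and the Cstdc4-led cluster 3169 and 2114 CPM (0.667). The interferon gene-rich cluster led by Rsad2 had 2869 and 1788 CPM (0.623). The Mmp8-led and Retnlg-led clusters had 869.7 and 603 CPM (0.693) and 1776 and 1327 CPM (0.747). The 14 alternatives placed the log2 ratio of the class between -0.83 and -0.73. Immature neutrophil-like cells held far less, 85.9 and 70.7 CPM (ratio 0.823, interval 0.749 to 0.904), and their precursors 12.6 and 10.7 CPM.

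**Figure D4:**
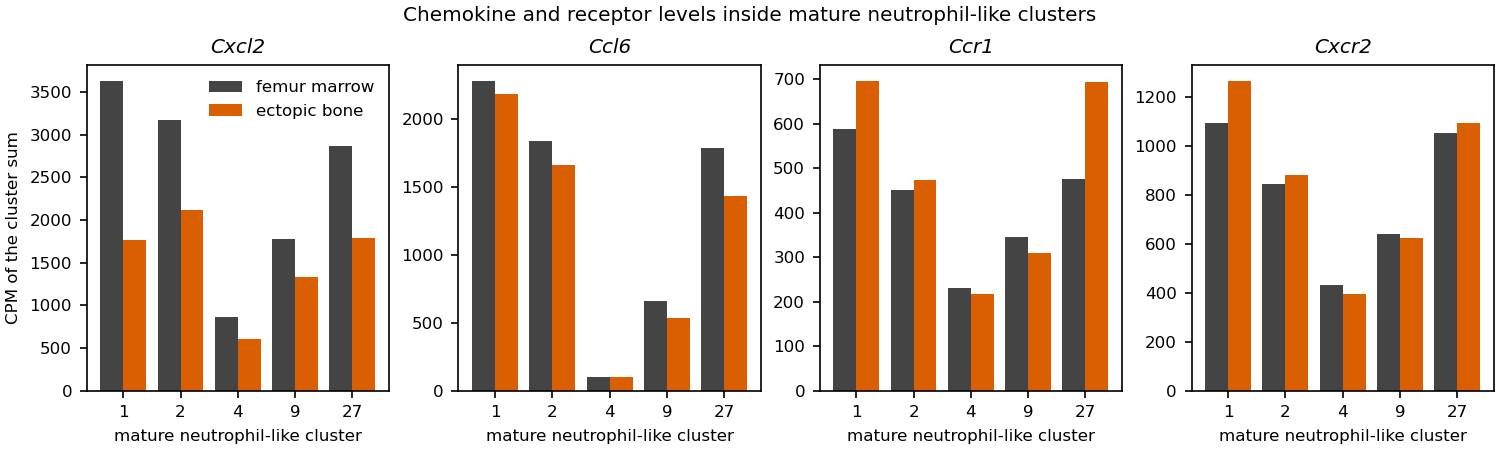
Levels (CPM of the cluster sum, linear axes from 0) of Cxcl2, Ccl6, Ccr1 and Cxcr2 in the 5 mature neutrophil-like clusters (by number; 1 is Il1b-led, 2 Cstdc4-led, 4 Mmp8-led, 9 Retnlg-led and 27 Rsad2-led) of the femur (dark grey) and the ectopic library (orange). The orange Cxcl2 bar is lower than the grey one in each cluster, while the orange bars of Ccr1 and Cxcr2 are higher in clusters 1, 2 and 27 and lower in clusters 4 and 9.

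Of 13 members measured in mature neutrophil-like cells, Cxcl2 was the 1 lower and Ccl5 the 1 higher past 1.5-fold, where 7.92% of all measured genes were past it in either direction. Ccl6 was at 1250.3 and 1053 CPM (ratio 0.842, interval 0.825 to 0.860) and Cxcl3, the neighbour of Cxcl1 and Cxcl2 on chromosome 5, at 5.27 and 3.55 CPM (ratio 0.675, interval 0.468 to 0.959). Ccl3 and Ccl4, inflammatory chemokines that attract leukocytes, had class ratios of 1.40 (1.26 to 1.55) and 1.31 (1.11 to 1.54). By cluster Ccl3 went both ways, at 1.84 in the Il1b-led, 1.73 in the Cstdc4-led and 0.284 in the Rsad2-led cluster, and Ccl4 was at 1.71 in the Il1b-led cluster. Ccl5 amounted to 47 and 60 UMIs in 45 and 58 cells, and its part from free RNA of T and NK cells was not tested. NF-kB response genes had 6 of 15 lower and 0 higher in this class, led by Icam1 (ratio 0.286, interval 0.219 to 0.369) and Nfkbia (ratio 0.527, interval 0.518 to 0.536), and summed to 7935 and 5542 CPM. The dissociation list had 2 higher and 2 lower of 17, summed to 13914 and 10458 CPM, and had a median log2 ratio of -0.20 against 0.02 for all genes. Their part in the Cxcl2 value was not tested.

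Low levels of Cxcl2 in other classes stood beside counts of neutrophil marker genes. B cell-like cells had 11.7 and 4.47 CPM, 54 UMIs in 51 femur and 31 in 31 ectopic cells, and their 10 neutrophil marker genes summed to 2351 and 1669.5 CPM. Plasma cell-like cells, of low UMI counts, had 726 and 299 CPM beside a neutrophil marker sum of 24830.1 and 11552 CPM, and in them the median log2 ratio of all genes was -0.63. The part of free neutrophil RNA in these values was not tested.

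The sequences before the start sites of 4 of these ligands are shown because they share a match to the NF-kB consensus. Ccl9, Ccr3 and Ccr6 also held a match and are not shown. RefSeq promoters of GRCm38.p6 were matched by symbol for 28 of the 38 members, and the 250 bases before each start were searched on both strands for the NF-kB consensus and for the interferon-response core (GAAA, any 2 bases, GAAA). Ccl2, Ccl4, Ccl5, Ccl7 and Cxcl5 were among the members without such a promoter and were not searched. The NF-kB consensus was found in 7 of the 28 genes (25.0%), against 3.90% of 32851 promoters, and the interferon-response core in 3, against 2.98%. The units differ, since a member gene counted if any of its promoters matched, whereas the background counts single promoters. Ccr6 had 3 matches before its later start and 0 before its earlier start. Each stretch below runs 5′ to 3′ from 10 bases before the farthest match to the last base before the start, with matches in capitals. Cxcl1, Cxcl2 and Cxcl3 hold the match on both strands, so 2 overlapping matches form 1 run of 11 capitals. In Cxcl10 the first run is the interferon-response core and the next 2 are NF-kB matches.
Cxcl1 (chr5:90891164-90891244, plus strand): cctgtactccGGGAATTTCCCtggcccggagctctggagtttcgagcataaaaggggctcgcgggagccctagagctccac
Cxcl2 (chr5:90903792-90903898, plus strand): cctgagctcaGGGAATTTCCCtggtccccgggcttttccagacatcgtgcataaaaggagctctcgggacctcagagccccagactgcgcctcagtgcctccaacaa
Cxcl3 (chr5:90786018-90786100, plus strand): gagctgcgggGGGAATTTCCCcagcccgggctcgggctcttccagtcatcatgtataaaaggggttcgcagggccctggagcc
Cxcl10 (chr5:92348890-92349112, minus strand): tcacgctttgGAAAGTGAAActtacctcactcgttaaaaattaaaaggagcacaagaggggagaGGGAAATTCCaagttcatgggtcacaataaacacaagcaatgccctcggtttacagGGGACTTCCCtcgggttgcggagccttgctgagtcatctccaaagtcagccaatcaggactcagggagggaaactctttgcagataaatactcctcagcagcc
A match describes letters and no bound site, and these data hold no measure of binding. Cxcl1, Cxcl2 and Cxcl3 share the same 11 letters but were highest in different classes, Cxcl1 in CAR-like and the other 2 in mature neutrophil-like cells.

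Monocyte-like, macrophage-like and dendritic cell-like cells were the other myeloid holders of ligands. Because cells moved between these classes when the clustering changed, the 4 classes (conventional dendritic, macrophage, monocyte and nonclassical monocyte-like, 1064 femur and 796 ectopic cells) were also summed together, a choice made after the data were seen. In that sum Cxcl16 was at 4.14 and 13.1 CPM, femur first, a ratio of 3.16 (2.36 to 4.26) that ranged from 2.95 to 3.21 over 7 clustering and filter alternatives. Ccl2 was at 17.6 and 25.3 CPM (ratio 1.43, interval 1.22 to 1.68), Ccl3 at 196 and 149.8 CPM (ratio 0.765, interval 0.724 to 0.809) and Cxcl10 at 42.1 and 36.1 CPM (ratio 0.857, interval 0.763 to 0.963). Ccl4 was at 60.2 and 54.3 CPM (ratio 0.902, interval 0.819 to 0.992), ranging from 0.894 to 1.09 over the 7 alternatives. Cxcl16 was past 1.5-fold in each of these 7 alternatives, Ccl3, Ccl4 and Cxcl10 in none of them, and Ccl2 with no doublet removal alone, at 1.52. Cxcl9 was past it in all 7 as well, at 4.80 and 10.1 CPM (ratio 2.10, interval 1.57 to 2.81), and so was Ccl5, at 7.10 and 32.8 CPM (ratio 4.63, interval 3.75 to 5.75). Macrophage-like cells made up 107 of the 1064 femur and 158 of the 796 ectopic cells. Their own Cxcl9 was at 59.4 and 52.0 CPM, not higher in ectopic bone. The part of the mix of the 4 classes in the summed ratios was not tested. Ccl24 had 10 and 272 UMIs, Ccr7 had 22 and 83 (ratios of 3.04 to 11.6 over the alternatives), and Xcr1 was at 2.76 and 6.03 CPM (ratio 2.19, interval 1.499 to 3.23), each past the fold in the 7. Pf4 had 7 and 91 UMIs and was past it in the 6 that gave a value. These alternatives did not leave out the cells with most UMIs, so they cannot show how far a sum rests on a few cells. In macrophage-like cells, 268 ectopic Ccl24 UMIs lay in 2 cells and 323 ectopic Ccl5 UMIs in 3 cells. Without the 1 cell with most UMIs in each library, the log2 ratio of Ccl24 in macrophage-like cells was -1.92.

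By class, 9 of 16 members measured in macrophage-like cells were past 1.5-fold, 5 higher and 4 lower, where 10.2% of all measured genes were past it. The class is 1 cluster whose top genes were Mrc1, Ifit3 and C1qb. C1qa had a UMI in 15 of its 107 femur and 22 of its 158 ectopic cells, and Mrc1 in 31 and 69. Most of its cells thus showed neither marker, and its values may include cells other than macrophages. Cxcl16 was at 19.5 and 66.7 CPM, in 17 and 33 cells (ratio 3.41, interval 2.21 to 5.49). Ccl3 (302 and 179 CPM, ratio 0.594, interval 0.515 to 0.685) and Ccl2 (87.1 and 48.1 CPM, ratio 0.552, interval 0.419 to 0.726) were lower, but Ccl2 turned to a log2 ratio of 2.64 with no second round of clustering. Cxcl10 was at 407 and 199.6 CPM, but its direction turned in 4 alternatives that redrew the class. The chemokines Ccl6 and Ccl9, known from resting myeloid cells, were abundant and within the fold, at 851 and 759.5 CPM and 571 and 574 CPM. In monocyte-like cells 2 of 11 measured members were past the fold, where 4.65% of all genes were. They were Ccl2 (17.1 and 28.1 CPM, ratio 1.64, interval 1.33 to 2.03) and Cxcl10 (13.5 and 8.82 CPM, ratio 0.652, interval 0.478 to 0.884). The monocyte Ccl2 ratio fell under 1.5-fold in 6 of 14 alternatives (log2 down to 0.31) and that of Cxcl10 in 8 of 14 (up to -0.07). In nonclassical monocyte-like cells Ccl2 was 9 UMIs in 7 femur and 46 in 16 ectopic cells (ratio 5.61, interval 2.71 to 13.04), and its direction turned with no second round of clustering.

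The other 4 higher members of macrophage-like cells rested on a handful of ectopic cells. Ccl24 (eotaxin-2, a CCR3 ligand) had 3 femur and 268 ectopic UMIs, of which 1 cell held 99.6%. Ccl22, which binds CCR4, had 44 ectopic UMIs in 4 cells, and all 4 also held Ccr7. Ccr7 itself, the receptor of migrating dendritic cells, had 1 femur UMI and 68 ectopic UMIs in 5 cells. Of the 421 ectopic Ccl5 UMIs, 76.7% lay in 3 cells that also held Ccr7, Fscn1 and Ccl22, genes of migratory dendritic cells. Of the 4 cells with Ccl22, 0 held C1qa, a macrophage marker, but only 22 of all 158 ectopic cells of the class held it. The absence of C1qa therefore does not tell these 4 cells apart from the rest of the class. Pf4, platelet factor 4, had 6 femur and 86 ectopic UMIs in 2 and 6 cells. Kept cells of all classes held only 117 of the 1188 ectopic Pf4 UMIs, so its ectopic class describes a small part of them. The last of the lower members, Ccr3, had 34 and 23 UMIs, of which 1 cell held 64.7% and 60.9%. The values of Ccl24, Ccr7, Ccl5, Pf4 and Ccr3 thus rest on few cells of the class.

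Conventional dendritic cell-like cells, 116 femur and 93 ectopic, had 7 of 10 measured members past 1.5-fold, where 15.1% of all measured genes were. Ccl4 was at 126 and 46.5 CPM (ratio 0.370, interval 0.287 to 0.472) and Ccl3 at 40.3 and 7.75 CPM (ratio 0.192, interval 0.103 to 0.337), both lower. Ccr2 was higher, at 389 and 682 CPM (ratio 1.75, interval 1.60 to 1.92). Xcr1, the receptor of cross-presenting dendritic cells, was at 19.6 and 45.5 CPM (ratio 2.32, interval 1.57 to 3.47), with UMIs in 5 and 15 cells. All 20 of those cells also held Clec9a, a marker of the same dendritic subset. Clec9a had a UMI in 45 of the 116 femur and 53 of the 93 ectopic cells of the class. The part of this difference in the Xcr1 ratio was not tested. Ccl5, Ccr9 and Cxcl2 were the other 3, at 2.46, 1.97 and 0.225 times the femur level, and 1 cell held 69.4% of the ectopic Ccl5, 46.7% of the ectopic Ccr9 and 56.1% of the femur Cxcl2 UMIs. Only 9 of the 14 alternatives gave a value for this class, and Ccl3 and Ccl4 were past the fold in each of the 9. Of those that redrew the class, only no doublet removal and at least 1500 UMIs gave a value. The rest of the 9 read the same cells again. In the sum of the 4 mononuclear classes both were within the fold, Ccl3 at 0.765 and Ccl4 at 0.902. Ccr2 was within it with no doublet removal (log2 0.23) and with at least 1500 UMIs (0.03), as was Xcr1 (0.15 and 0.36).

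Basophil or mast cell-like cells, 69 femur and 54 ectopic, were led by Prss34 and Mcpt8 and had the highest levels of Ccl3 and Ccl4. Ccl3 was at 3745 and 4913 CPM and Ccl4 at 5182 and 6238 CPM. The Ccl3 level over that of the next class was 12.4 (11.1 to 13.9) for femur and 12.96 (11.5 to 14.6) for ectopic cells. These few cells held 31.6% and 44.3% of the Ccl3 UMIs in kept cells, and 47.3% and 57.8% of the Ccl4 UMIs there. The class also had the highest Ccl6 (2569.8 and 1787 CPM) and Ccl9 (1192 and 1423 CPM). Of 8 members measured, 0 were past 1.5-fold between tissues, where 13.6% of all measured genes were. The ratios farthest from 1 were those of Ccl6 at 0.695 (0.641 to 0.754) and Ccr2 at 0.700 (0.542 to 0.901), and on the other side Ccl3 at 1.31 (1.24 to 1.39). Neutrophil marker genes summed to 2902 and 8385 CPM in this class, and their part in its Ccl6 and Cxcr2 was not tested.

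NK cell-like cells, 92 femur and 73 ectopic, held Ccl5 at 5804 and 4534 CPM (ratio 0.781, interval 0.748 to 0.815), the highest level of that chemokine, which attracts T cells and other leukocytes. T cell-like cells came next, at 1439 and 1619 CPM, and the next was the ectopic macrophage-like class at 182 CPM. Xcl1 (lymphotactin), which draws Xcr1-bearing dendritic cells, was at 502 and 589.9 CPM in NK-like and 229.6 and 176 CPM in T-like cells. In T-like cells 94.8% and 95.8% of Xcl1 UMIs lay in cells that also held Ccl5. Of 7 members measured in NK-like cells, 3 were higher in ectopic bone and 0 lower, where 10.5% of all genes were past the fold. Ccl4 was at 361 and 834 CPM (ratio 2.31, interval 2.02 to 2.66) and Ccl3 at 227 and 379 CPM (ratio 1.67, interval 1.39 to 2.01), Ccl4 in 51 and 54 and Ccl3 in 45 and 52 cells. The other was Cxcl10, with 0 femur and 108 ectopic UMIs, of which 1 cell held 99.1%.

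T cell-like cells, 358 femur and 372 ectopic, had 9 of 13 measured members past 1.5-fold, where 7.72% of all measured genes were. The ligands Ccl4 (21.3 and 68.1 CPM, ratio 3.20, interval 2.45 to 4.23) and Ccl3 (10.9 and 22.5 CPM, ratio 2.05, interval 1.38 to 3.11) were higher, as in NK-like cells. Cxcl10 was higher too (15 and 111 UMIs), with 86.5% of the ectopic UMIs in 1 cell. Cxcr5, the receptor of follicular helper T cells and of B cells, was at 7.82 and 17.1 CPM in 22 and 53 cells (ratio 2.19, interval 1.38 to 3.60). Lower were Ccr9 (63.5 and 30.6 CPM, ratio 0.481, interval 0.384 to 0.602), Ccr6 (17.8 and 3.70 CPM, ratio 0.208, interval 0.111 to 0.367), Ccr2 (84.1 and 48.4 CPM, ratio 0.575, interval 0.478 to 0.692), Cxcr6 (93.5 and 61.6 CPM, ratio 0.659, interval 0.556 to 0.780) and Cxcl2, at 0.481 times the femur level.

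The clusters inside the T cell-like class differed in size between libraries. A cluster led by Cd226 and Btbd11 and richest in Zbtb16, the gene of the innate-like T cell factor PLZF, held 46 femur and 10 ectopic cells. Its Cxcr6 stood at 467 and 409 CPM, and its Ccr2 at 335 and 111 CPM (ratio 0.331, interval 0.155 to 0.630), from 116 and 10 UMIs. In all other T cell-like clusters together, a split chosen after the data were seen, Cxcr6 was at 48.1 and 54.2 CPM (ratio 1.13, interval 0.908 to 1.40) and Ccr2 at 53.7 and 47.1 CPM (ratio 0.877, interval 0.707 to 1.09), both within 1.5-fold. Ccr9 and Ccr6 stayed lower there, at ratios of 0.459 (0.365 to 0.575) and 0.193 (0.103 to 0.341), and Ccl4 stayed higher at 2.81 (2.13 to 3.75). Within the Cd8b1-rich cluster led by Themis, of 124 and 126 cells, Ccr9 was at 136 and 85.7 CPM.

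**Figure D5:**
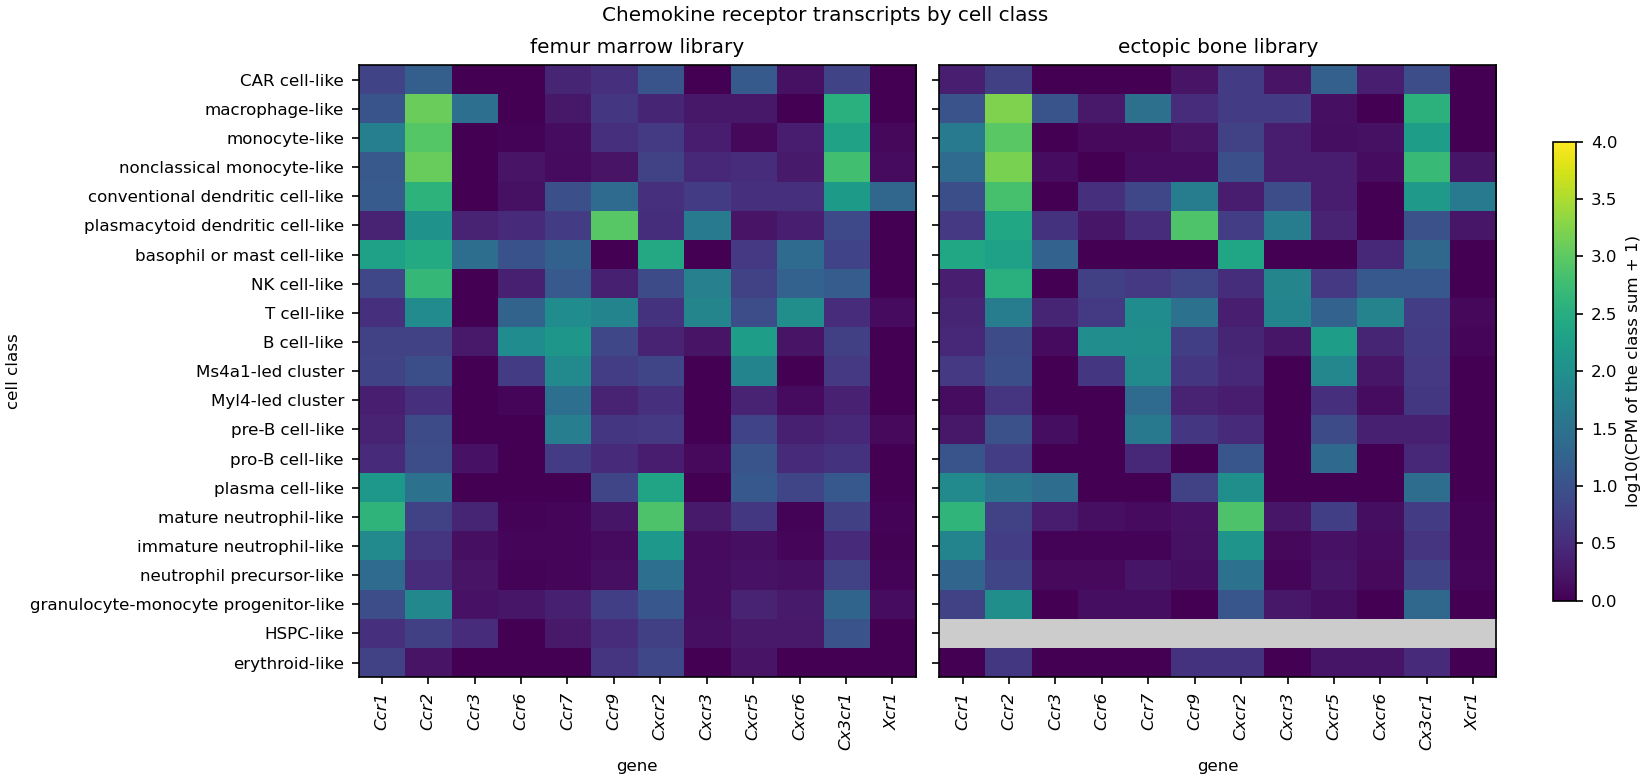
Levels of the 12 receptor genes (columns) in 21 cell classes (rows) of the femur library (left) and the ectopic library (right), as log10 of CPM plus 1; grey marks a class with fewer than 20 cells. Both panels show Ccr1 and Cxcr2 in mature neutrophil-like cells, Ccr2 and Cx3cr1 in monocyte-like and macrophage-like cells, Ccr9 in plasmacytoid dendritic cell-like cells, and Ccr6, Ccr7 and Cxcr5 in B cell-like cells.

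Of the 12 receptors, neutrophils held Ccr1 and Cxcr2. Cxcr2, the receptor through which neutrophils leave the marrow, was at 761 and 758 CPM in mature neutrophil-like cells (ratio 0.996, interval 0.971 to 1.02). Ccr1 was at 405 and 409 CPM (ratio 1.01, interval 0.976 to 1.05). Both were lower in less mature cells, with Cxcr2 at 134 and 117 CPM in immature neutrophil-like cells and 28.1 and 29.6 CPM in their precursors. Both counting intervals in mature cells held 1, beside a Cxcl2 ratio of 0.590 in the same cells. By cluster Ccr1 ranged from 0.898 in the Retnlg-led to 1.46 in the Rsad2-led cluster, and Cxcr2 from 0.914 to 1.16. Basophil or mast cell-like cells had 261 and 231 CPM for Cxcr2 and 197 and 252 CPM for Ccr1.

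Ccr2 was highest in macrophage-like (1233 and 1670.2 CPM), nonclassical monocyte-like (1177 and 1585 CPM) and monocyte-like cells (879.7 and 948 CPM), and the first pair did not differ beyond counting error in the femur, at a ratio of 1.05 (0.985 to 1.11). Few cells of the macrophage-like class held C1qa, 15 of 107 and 22 of 158, so its Ccr2 may not be that of macrophages. The nonclassical class joins 2 clusters in different mix. One led by Arhgef37 and Hpgd (200 and 168 cells), with 1 nonclassical marker among its top 10 genes, had Ccr2 at 1616 and 1891 CPM. The other, led by Adgre4, Cd36 and Ace (142 and 54 cells), had 259 and 254 CPM. Over the 4 mononuclear classes together the ratio was 1.27 (1.24 to 1.30). Cx3cr1, the fractalkine receptor of patrolling monocytes, was highest in nonclassical monocyte-like cells, at 606 and 513 CPM (ratio 0.847, interval 0.791 to 0.907). Ccr3, the eotaxin receptor, was at 27.3 and 17.4 CPM in basophil or mast cell-like cells.

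Plasmacytoid dendritic cell-like cells, 270 femur and 88 ectopic, held Ccr9 at 913 and 779 CPM, 88.0% and 77.5% of its UMIs in kept cells. Their Ccr2 was higher in ectopic bone, at 112 and 238 CPM in 99 and 54 cells (ratio 2.12, interval 1.82 to 2.46), and its log2 ratio ranged from 0.94 to 1.24 over 14 alternatives. The class lay in clusters of different mix, of 103 and 19, 61 and 46, and 80 and 17 cells for the 3 largest. Inside them Ccr2 was at 115 and 301, 116 and 166, and 93.3 and 356 CPM, higher in the ectopic library in each. Ccl4 in these cells was 284 and 279.6 CPM and Cxcr3 44.2 and 47.1 CPM. Ccl5 and Cxcl2 were also past 1.5-fold, but 1 cell held 95.1% of the femur Ccl5 and 90.9% of the ectopic Cxcl2 UMIs.

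B cell-like cells, 798 femur and 1067 ectopic, held the lymphoid homing receptors. Cxcr5, which leads B cells to follicles, was at 171 and 166 CPM (ratio 0.969, interval 0.884 to 1.06), and Ccr6 at 86.5 and 92.0 CPM (ratio 1.06, interval 0.936 to 1.21). Ccr7 was at 129.7 and 97.4 CPM (ratio 0.751, interval 0.672 to 0.840), and in T cell-like cells at 87.3 and 85.9 CPM. The Ms4a1-led cluster held Ccr7 at 81.5 and 80.6 CPM and Cxcr5 at 62.2 and 71.1 CPM, and the Myl4-led cluster held Ccr7 at 28.1 and 24.4 CPM. Cxcr3 was spread over T cell-like (64.7 and 63.2 CPM), NK cell-like (54.8 and 65.1 CPM) and plasmacytoid dendritic cell-like cells, and the 2 highest classes did not differ beyond counting error in either library, at ratios of 1.18 (0.852 to 1.67) and 1.03 (0.757 to 1.38). In CAR-like cells Cxcr5 amounted to 24 and 26 UMIs in 21 and 15 cells, and the other 11 receptors were below 50 UMIs there.

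Known ligand and receptor pairs can be set side by side. For CXCR2, the ligand Cxcl2 lay in the mature neutrophil-like cells that also held the receptor, while Cxcl1 lay in CAR-like cells, and Cxcl5 in ectopic CAR-like cells. For CCR2, CAR-like and mononuclear cells held Ccl2 and CAR-like cells held Ccl7, with the receptor in monocyte-like and macrophage-like cells. For CX3CR1, CAR-like cells held Cx3cl1 (95.9% and 94.1% of its UMIs in kept cells) and nonclassical monocyte-like cells the receptor. For CCR7, CAR-like cells held 97.0% and 98.0% of the Ccl19 UMIs in kept cells and B and T cell-like cells the receptor. For XCR1, NK and T cell-like cells held Xcl1 and dendritic cell-like cells the receptor. The ligand of CCR9, Ccl25, is not among the 38 genes and had 2211 femur and 1775 ectopic UMIs in kept cells. Its highest classes differed, NK cell-like in the femur (52.4 CPM, 43 UMIs) and pro-B cell-like in ectopic bone (39.4 CPM, 63 UMIs). Each held a small part of its UMIs.

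Members with few counts were Ccl8 (2 femur and 0 ectopic UMIs in kept cells), Ccl11, Ppbp (9 and 8) and Ccl17, at 45 and 12 UMIs, of which femur CAR-like cells held 15. They were below the count asked for in every class, so no ratio is given for them. Ppbp and Pf4 are platelet chemokines. In the femur, stem and progenitor cell-like cells (97 cells) held Pf4 at 123 CPM, 283 UMIs in 20 cells, of which 95.4% lay in cells with a UMI of the megakaryocyte gene Itga2b. The ectopic library had 16 such cells, too few for a comparison.

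A list of 20 other chemokine family genes was read beside the members. Of them, 2 were measured in CAR-like cells, with 0 higher and 1 lower, and 4 in mature neutrophil-like cells, with 0 higher and 1 lower. Ackr4, a scavenger receptor that removes CCL19 and CCL25, was highest in CAR-like cells at 209.7 and 135 CPM, a ratio of 0.644 (0.545 to 0.761), next to a Ccl19 ratio of 0.574 in the same cells. Ccrl2, which binds chemerin without signalling, was at 104 and 75.5 CPM in mature neutrophil-like cells. Ccl20 and Ccl21a had 0 UMIs in the kept cells of either library. Of 25 genes that pass on chemokine receptor signals, such as Gnai2, Arrb2, Dock2 and Rac2, 24 were measured in mature neutrophil-like cells, with 0 higher and 0 lower. In T cell-like cells it was 0 and 0 of 23, and in macrophage-like cells 0 higher and 1 lower of 25. In CAR-like cells 4 of 13 were lower and 0 higher, and the lowest ratio was that of Dock2 (ratio 0.225, interval 0.126 to 0.381), a gene of leukocytes.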

How the data were processed

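Single-cell RNA libraries of femur marrow and ectopic bone, 1 per group, were read as the deposited UMI counts, whole numbers per gene and barcode, which the authors made in Cell Ranger (version 7.0.1, per the file headers); the build GRCm39 is per the submitters' processing notes. Whether counting used strand is not given in the sources used here. The labels tie no library to a number of animals. Barcodes with at least 500 UMIs, 300 genes and at most 10% mitochondrial UMIs were kept, which left 10665 femur and 6794 ectopic barcodes, and simulated-doublet scores then removed 910 and 369. Cells of both libraries were clustered together with leidenalg 0.10.2 (2000 variable genes without chemokine family genes, 30 components, resolution 1) and named from marker lists. UMIs were summed per class and library and scaled to CPM, with exact 95% Poisson, binomial and ratio intervals from scipy 1.17.1, and edgeR 4.0.16 gave TMM factors for an alternative. A ratio against a library at 0 used a floor of 3 UMIs. The ratio code was tested on simulated data. With 1 library per group no test was run. Every member with 50 UMIs in a class was eligible for values in full. Alternatives changed the clustering, filters, doublet removal, scaling, thinning, the count minimum, the fold and the cells with most UMIs. The members and lists were chosen with earlier results of these data known.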

Additional observations from a re-analysis of the deposited data

Results flagged for a closer look

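For 9 members the ectopic/femur ratio was past 1.5-fold upward in one class and downward in another. These differences between classes were not tested. Ccl2 was at 5.61 in nonclassical monocyte-like and 0.552 in macrophage-like cells, both of which turned direction with no second round of clustering. Ccl3 was at 2.05 in T cell-like and 0.192 in conventional dendritic cell-like cells, and Ccl4 at 3.20 and 0.370 in the same classes. Ccl5 was at least 29.9-fold higher in erythroid-like cells, where 1 of the 3 ectopic cells with a UMI held 97.4%, and at 0.119 in plasmacytoid dendritic cell-like cells, where 1 of the 4 such femur cells held 95.1%. Ccl6 was at 4.71 in pro-B cell-like cells, where 1 of the 10 ectopic cells with a UMI held 76.3%, and 0.252 in CAR-like cells. Cxcl2 was at 4.57 in pro-B cell-like cells, where 1 of the 7 ectopic cells with a UMI held 86.0%, and 0.0847 in erythroid-like cells, where 1 of the 10 femur cells with a UMI held 78.2%. Cxcl10 was at least 35.0-fold higher in NK cell-like cells, where 1 cell held nearly all of it, and at 0.490 in macrophage-like cells. Ccr2 was at 2.67 in neutrophil precursor-like cells, where 1 of the 17 ectopic cells with a UMI held 46.5%, and 0.575 in T cell-like cells, and Ccr9 at 1.97 in conventional dendritic cell-like and 0.481 in T cell-like cells.

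Barcodes left out by the filters or by doublet removal were also read. Pf4 had 1071 UMIs in left-out ectopic barcodes, of which 1046 lay in 4 barcodes, against 24 UMIs in left-out femur barcodes. That was 90.2% of all ectopic and 7.10% of all femur Pf4 UMIs. With no doublet removal, granulocyte-monocyte progenitor-like cells had the highest Pf4 level in both libraries.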

How the results depend on the processing

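No paired analysis was possible because each group had 1 library. Of 2114 log2 ratios under 14 alternatives, 203 had the opposite sign of the value reported, and 42 of these belonged to ratios past 1.5-fold. Apart from those 42, 1733 lay inside the counting interval of the value reported and 339 outside it. In CAR-like cells the 3 higher members became 5 with at most 5% mitochondrial UMIs, 6 with the mean of per-cell CPM, 9 with cells thinned to 2000 UMIs and 5 without the 5 cells with most UMIs. The 3 lower members became 8 with no doublet removal, 5 with at least 1500 UMIs, 1 with the mean of per-cell CPM, 5 without the low-UMI cluster, 5 without the 5 cells with most UMIs, 5 when measured from 20 UMIs and 1 at 2-fold. Over all classes the 33 higher became 53 when measured from 20 UMIs, and the 29 lower became 52 with no doublet removal, 48 when measured from 20 UMIs and 16 at 2-fold. The 42 log2 ratios that turned among those past 1.5-fold were as follows. With no second round they were Ccl2 in macrophage 2.64, Ccl2 in nonclassical monocyte -0.65, Ccl24 in macrophage -0.23, Cxcl10 in macrophage 0.31. Without the 1 cell with most UMIs they were Ccl24 in macrophage -1.92, Ccl5 in erythroid -0.36, Ccl5 in plasmacytoid dendritic cell 0.70, Cxcl10 in NK cell -1.60, Cxcl10 in granulocyte-monocyte progenitor -0.57, Cxcl2 in plasmacytoid dendritic cell -1.82, Cxcl2 in pro-B cell -0.55. With at least 1500 UMIs they were Ccl5 in conventional dendritic cell -0.13, Ccl6 in pro-B cell -0.62, Cxcl10 in macrophage 0.63, Cxcl2 in granulocyte-monocyte progenitor 0.16, Cxcl2 in pro-B cell -0.71, Cxcr2 in plasma cell 1.51. With cells thinned to 2000 UMIs they were Ccl5 in erythroid -0.27, Ccl5 in plasmacytoid dendritic cell 0.0217, Ccl6 in CAR cell 0.99, Ccr3 in macrophage 1.35, Ccr9 in conventional dendritic cell -1.12, Cxcl2 in Myl4-led cluster 0.49, Cxcl2 in erythroid 0.31, Cxcl2 in plasma cell 2.22, Cxcl2 in pre-B cell 0.31, Cxcl2 in pro-B cell -0.0029. With no doublet removal they were Ccl6 in pre-B cell 0.0202, Ccl6 in pro-B cell -0.43, Ccr1 in nonclassical monocyte -1.02, Cxcl10 in NK cell -0.17, Cxcl2 in plasmacytoid dendritic cell -2.01, Cxcl2 in pro-B cell -0.57. Without the 5 cells with most UMIs they were Ccl6 in pro-B cell -0.17, Ccr3 in macrophage 0.67, Cxcl10 in granulocyte-monocyte progenitor -0.17, Cxcl2 in plasmacytoid dendritic cell -1.39, Cxcl2 in pro-B cell -1.76, Pf4 in macrophage -2.54. With chemokine genes among variable genes they were Cxcl10 in macrophage 2.92, Cxcr6 in T cell 0.15. With at most 5% mitochondrial they were Cxcl10 in macrophage 1.56. The cause was not tested. Leaving out the low-UMI cluster and the 5 cells with most UMIs was chosen after seeing the data. Members with under 50 UMIs in a class are limited by depth.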
